A study of Mus musculus with 5 samples.

Results

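The core genes of planar cell polarity were followed in the luminal layer of the mouse uterus from the morning of day 3 of pregnancy to the morning of day 5, when the blastocyst has attached. The set was chosen by name and held 10 genes of the 23420 in the table of read counts. These were the Frizzled receptors Fzd3 and Fzd6, the receptor tyrosine kinases Ror1 and Ror2, the atypical cadherins Celsr1 and Celsr2, the membrane proteins Vangl1 and Vangl2, and the cytoplasmic adaptors Prickle1 and Prickle2. All 10 genes were found in the table, and 9 of them averaged at least 1 CPM, the count per 1000000 reads of the library, as did 12918 genes in all. The exception was Ror1, which was counted 0, 1, 6, 0 and 6 times.

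All libraries came from wild-type C57BL/6N females, and the day a vaginal plug was seen was taken as day 1 of pregnancy. The 5 conditions were the mornings of days 3 and 4, the evening of day 4, and the morning of day 5 at sites away from and around the attached embryo, with 1 library each. The labels also place the site away at the M pole and the site around at the AM pole (mesometrial and anti-mesometrial in the study). Nearness to the embryo and pole therefore cannot be told apart in the day 5 libraries. The luminal layer, the epithelial sheet that lines the uterine cavity, was cut from frozen sections with a laser. The day 5 females received a blue dye in the blood beforehand to show where embryos had attached. The study's methods describe pooling RNA from several samples into a library for its other genotypes on day 4 evening, and for these wild-type libraries the number of mice or sections is not given in the sources used here. A single library stood for each condition, so differences between conditions had no test, and the intervals given with changes are 95% counting intervals, which cover the sampling of reads and no variation between mice.

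Planar cell polarity is the alignment of cells within the plane of an epithelium. In the core system, Frizzled with Dishevelled gathers on one side of a cell and Vangl with Prickle on the other, and Celsr cadherins bridge the opposed membranes. Wnt5a acting through Ror receptors feeds into this system, and in the mouse uterus both Wnt5a with its Ror receptors and epithelial Vangl2 are known to be needed for the evenly spaced crypts in which embryos lodge.

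Depth ranged from 15334674 to 19529491 counts per library, so that 3 counts, used here as the floor of detection, corresponded to 0.160 to 0.190 CPM. The 12 luminal epithelial markers were counted in every library and summed to between 4400 CPM, away from the embryo on day 5, and 12900 CPM, on day 4 morning. Calb1 made up 8020 CPM of the latter, and without it the sum was 4320 to 4930 CPM in the first 4 libraries and 12000 CPM around the embryo. Stromal markers were counted in every library as well, at 600 to 878 CPM summed over 13 genes, but they differed among themselves: from away to around the embryo Lum stood at 53.1 and 6.77 CPM and Dcn at 91.0 and 14.2 CPM, whereas Hand2 stood at 20.7 and 134 CPM. Smooth muscle markers summed to 7.81 to 27.4 CPM in 4 libraries and to 389 CPM around the embryo, where Des alone held 359 CPM. All 12 embryo markers were counted around the embryo, and 5 of them (Cdx2, Pou5f1, Nanog, Gata4 and Hand1) were at 0 in the other 4 libraries. In such bulk samples, fewer cells of a type and less RNA per cell cannot be told apart.

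The 10 genes form 5 pairs of paralogs, so the reads of each pair were first checked for shared sequence. The longest identical run between the coding sequences of a pair (GENCODE vM21, GRCm38) was between 19 and 23 bases, and no pair shared a run of 25 bases. The runs that lie within a single exon are shown for the Vangl, Celsr and Frizzled pairs because they mark where the paralogs are closest.

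Vangl1 and Vangl2: caaggacatggaggacagtgt
Celsr1 and Celsr2: tttgtggaagagaacagccc

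The Vangl run lies at chr3:102184455-102184475 in Vangl1 and chr1:172009945-172009965 in Vangl2, and the Celsr run at chr15:86030688-86030707 in Celsr1 and chr3:108412691-108412710 in Celsr2, all on the minus strand. In the Frizzled pair the longest run, of 20 bases, ran into the first codons of the KTxxxW motif, the stretch just inside the last transmembrane segment through which Frizzled receptors bind Dishevelled. The coding sequences are printed from the start of the shared run to the end of the motif, with the 6 codons of the motif in capitals.

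Fzd3: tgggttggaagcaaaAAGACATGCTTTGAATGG
Fzd6: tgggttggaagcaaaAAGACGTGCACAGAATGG

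These 33 bases lie at chr14:65212107-65212139 (minus strand) in Fzd3 and chr15:39033934-39033966 (plus strand) in Fzd6, and 29 of them are the same in both genes. The motif occurred 1 time in each coding sequence. The counted features held 92.9% to 100% of the coding bases of each gene in the GENCODE annotation. They were shorter than the full GENCODE transcripts for Vangl2 (32.3% of its exon bases), Vangl1 (49.7%) and Ror1 (61.5%), so reads outside the counted exons of those genes did not enter the counts. Only Vangl1 overlapped another annotated gene, by 8 bases of the antisense transcript Gm16160.

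**Figure D1:**
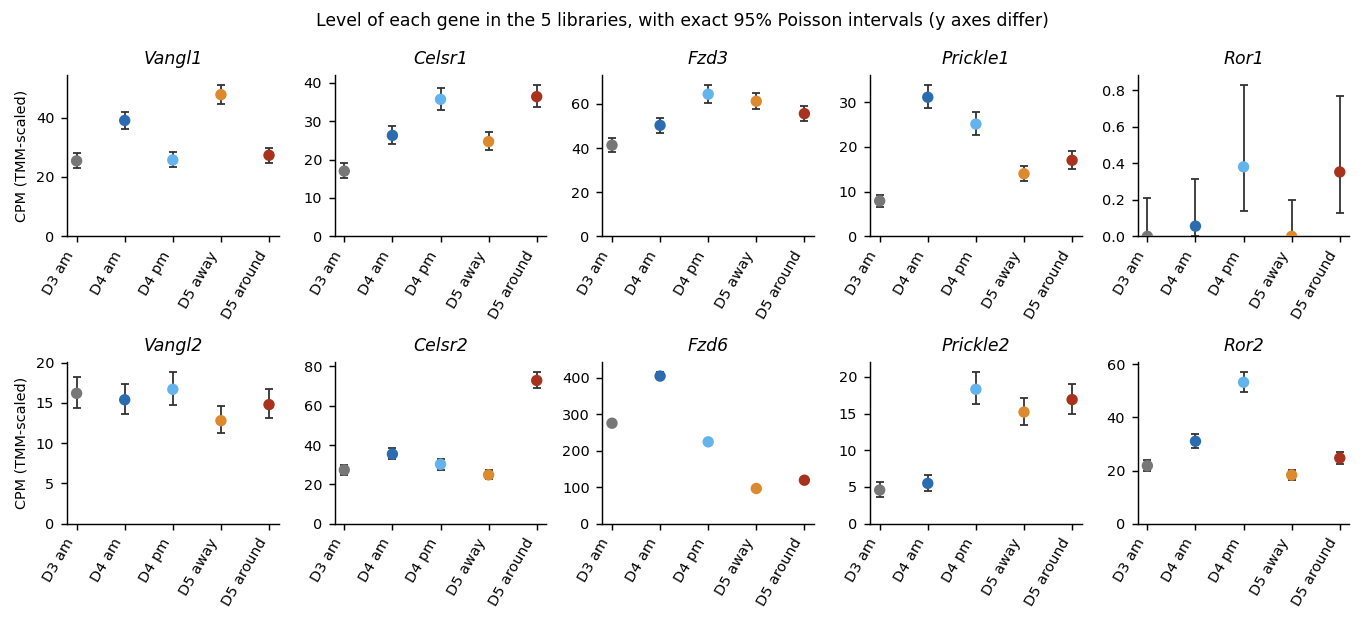
Each panel plots 1 gene, with the 5 libraries on the x axis (D3, D4 and D5, days 3 to 5; am, morning; pm, evening; away and around, relative to the attached embryo) and CPM after TMM scaling on the y axis, which differs between panels and starts at 0. Points are single libraries and bars are exact 95% Poisson intervals. Fzd6 stood at 404 CPM on day 4 morning and at 96.3 and 119 CPM on day 5, Celsr2 stood at 72.8 CPM around the embryo and between 24.8 and 35.4 CPM elsewhere, and Vangl2 stayed between 12.8 and 16.7 CPM.

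Levels of different genes were compared per length, as CPM per kilobase of counted feature (RPKM) averaged over the 5 libraries. Fzd6 was the most abundant of the set at 54.1 RPKM, above 88.6% of the genes kept. It was followed by Vangl1 at 9.27, Ror2 at 7.5, Vangl2 at 6.73, Prickle1 at 4.66, Fzd3 at 4.28, Celsr2 at 3.61, Celsr1 at 2.54 and Prickle2 at 1.39 RPKM, while Ror1 stood at 0.0446 RPKM. The other 8 kept genes thus lay within a much narrower band, each above 16.3% to 55.8% of the genes kept.

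The Frizzled receptors, which bind Wnt ligands through a cysteine-rich domain, behaved differently from each other. Fzd6 (chr15:39006034-39038188) was counted 4855 times on the morning of day 3, 7219 times on that of day 4, 3532 times the same evening, then 1808 times away from the embryo and 2026 times around it, or 275, 404, 224, 96.3 and 119 CPM. It was highest on day 4 morning and lowest in the pair of day 5 libraries. Relative to day 4 morning, the log2 change was -0.85 on day 4 evening (95% counting interval -0.91 to -0.79), -2.07 on day 5 away from the embryo (-2.14 to -1.99) and -1.76 around it (-1.83 to -1.69). The day 5 values were therefore 4.19-fold and 3.39-fold lower than on day 4 morning. Around the embryo Fzd6 was 0.31 higher on the log2 scale than away from it (0.22 to 0.40), a difference that was -0.03 when libraries were scaled by total counts. Its range over the 5 libraries, 2.07 on the log2 scale, was wider than that of 68.4% of the genes kept.

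Fzd3 (chr14:65192449-65262463), which acts redundantly with Fzd6 in neural tube closure, moved little. Its counts were 729, 898, 1014, 1149 and 944 in the order day 3 morning, day 4 morning, day 4 evening, day 5 away and day 5 around, which is the order used for all values by library below. These corresponded to 41.3, 50.3, 64.4, 61.2 and 55.6 CPM, a 1.56-fold difference between the lowest and the highest. Day 4 evening and day 5 away from the embryo did not differ beyond counting error, whereas the other neighbours in the order of levels did. Per length, Fzd6 exceeded Fzd3 20.5-fold on day 3 morning and 24.7-fold on day 4 morning, but 10.7-fold on day 4 evening, 4.84-fold on day 5 away from the embryo and 6.60-fold around it. The share of Fzd3 in the RPKM of the pair was thus 3.88% on day 4 morning and 17.1% on day 5 away from the embryo.

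The Ror receptors are receptor tyrosine kinases with a Frizzled-like Wnt-binding domain, and both bind Wnt5a. Ror2 (chr13:53109312-53286124) was counted 385, 554, 838, 343 and 419 times, or 21.8, 31.0, 53.2, 18.3 and 24.7 CPM. It peaked on day 4 evening and was lowest away from the embryo on day 5. From day 4 morning it was 0.78 higher on the log2 scale on day 4 evening (0.62 to 0.94). From day 4 evening it was 1.54 lower away from the embryo (log2 change -1.54, -1.73 to -1.36) and 1.1 lower around it (-1.1, -1.28 to -0.94), which is 2.90-fold and 2.15-fold. Around the embryo the log2 level was 0.43 above that away from it (0.22 to 0.64). The size of this difference depends on the scaling. Under library totals the median of all genes kept was -0.36 in this comparison. Ror2 kept its direction there, but with a smaller difference, while Fzd6 went from 0.31 to -0.03.

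Ror1 (chr4:100095791-100444765) was at 0 counts in the day 3 library and in the day 5 library away from the embryo, was counted 1 time on day 4 morning, and was counted 6 times each on day 4 evening and around the embryo. A count of 0 allows up to 3 counts, or 0.170 CPM and 0.160 CPM in these libraries. With the Ror1 count set to 3, Ror2 per length was 114-fold and 102-fold above Ror1 in the same libraries. The counting intervals of these ratios, with Ror1 at 0, lay above 6.53 and 6.37 on the log2 scale. On day 4 evening and around the embryo, where both were counted 6 times or more, Ror2 exceeded Ror1 125-fold and 62.3-fold, with wide counting intervals on the log2 scale of 5.83 to 8.41 and 4.83 to 7.42. At these counts no fold is given for Ror1. Its counting interval on the log2 scale lay above 0.38 from away to around the embryo and below -0.49 from day 4 evening to day 5 away from the embryo, and it held 0 in the other comparisons.

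The start of Ror2 is shown because this was the only promoter of the 10 found for the set that held any of the letters searched. Promoter windows of 250 bases before to 50 after a transcript start (RefSeq, GRCm38.p6) were at hand for Vangl2, Celsr2, Prickle1, Prickle2, Ror1 and Ror2. They were searched for TTCNNNGAA, the core of STAT sites, for GNACANNNTGTNC, the form bound by progesterone and glucocorticoid receptors, and for TGANTCA, the form bound by AP-1 (all 3 read the same on both strands). The AP-1 letters began 90 bases before the Ror2 start and are in capitals in this stretch of chr13:53286168-53286254, given on the minus strand of the gene.

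Ror2 promoter: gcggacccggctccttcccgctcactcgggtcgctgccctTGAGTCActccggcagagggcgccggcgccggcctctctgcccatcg

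Of 32851 promoters in the same table, 7.81% held the AP-1 letters, 8.30% the STAT letters and 0.475% the receptor letters, so that 1 match among 10 windows was near the share in promoters at large.

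The Celsr cadherins, large cadherins that hold the polarity complexes of neighbouring cells together, both stood higher around the embryo on day 5 than away from it. Celsr2 (chr3:108390851-108415552) was counted 483, 633, 475, 465 and 1236 times, or 27.3, 35.4, 30.2, 24.8 and 72.8 CPM. The other 4 libraries lay close together, and in their order from day 5 away through day 3 morning to day 4 evening the neighbours did not differ beyond counting error. The ends of this run did, with a log2 change of -0.28 from day 4 evening to day 5 away from the embryo (-0.47 to -0.10). Around the embryo, Celsr2 was 1.04 higher on the log2 scale than on day 4 morning (0.90 to 1.18), 1.27 higher than on day 4 evening (1.12 to 1.43) and 1.55 higher than away from the embryo on the same morning (1.40 to 1.71). Scaled by total counts, the first of these was 0.99 and within 2-fold. The last is a 2.93-fold difference, larger than the change of 83.9% of the genes kept. The same library alone held the 5 embryo markers named above, at 0.294 CPM for Hand1 to 4.00 CPM for Pou5f1, and the highest smooth muscle sum. Luminal epithelial markers summed to 12000 CPM there and to 4400 CPM away from the embryo, but they did not move together. Areg stood at 2840 CPM around the embryo and 35.3 CPM away from it, and Ihh at 2200 and 669 CPM. Krt18 stood at 1150 and 1080 CPM in the same order. Msx1 was lower around the embryo (98.4 and 195 CPM), as was Calb1, and the rest of the list was higher. The part of these differences in the Celsr2 level was not tested.

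Celsr1 (chr15:85898929-86033777), the family member whose loss misorients hair and oviduct folds in mice, was counted 301, 470, 562, 464 and 619 times. These counts equalled 17.0, 26.3, 35.7, 24.7 and 36.4 CPM. Day 4 evening and day 5 around the embryo formed the upper pair, day 5 away and day 4 morning the pair below it, and within neither pair did the levels differ beyond counting error. Celsr1 was 0.56 higher on the log2 scale around the embryo than away from it (0.38 to 0.74), in the same direction as Celsr2 and within 2-fold. The ratio of Celsr2 to Celsr1 per length was 1.68 on day 3 morning and 1.41 on day 4 morning. It was 0.886 on day 4 evening (log2 interval -0.35 to 0.00) and 1.05 away from the embryo (-0.12 to 0.26), and 2.09 around the embryo (0.93 to 1.21).

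The Vangl proteins sit opposite Frizzled at cell boundaries and recruit Prickle. Vangl2 (chr1:172000960-172028444), which is mutated in the looptail mouse, was counted 287, 275, 263, 241 and 252 times, or 16.2, 15.4, 16.7, 12.8 and 14.8 CPM. No neighbours in the order of these levels differed beyond counting error, and the highest was 1.30-fold above the lowest. Only 3.77% of the genes kept had a narrower range over the 5 libraries, while the median range was 1.36 on the log2 scale. The largest log2 change of Vangl2 among the comparisons was -0.38, from day 4 evening to day 5 away from the embryo (-0.64 to -0.12).

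Vangl1 (chr3:102153583-102204693) went up and down between the same libraries. It was counted 449, 696, 405, 895 and 463 times, or 25.4, 39.0, 25.7, 47.7 and 27.3 CPM. Day 3 morning, day 4 evening and day 5 around the embryo did not differ as neighbours beyond counting error, and day 4 morning and day 5 away from the embryo stood above them. On day 5, Vangl1 was 0.80 lower on the log2 scale around the embryo than away from it (log2 change -0.80, -0.97 to -0.64), a 1.75-fold difference opposite in direction to those of Celsr1 and Celsr2. When libraries were scaled by their total counts instead of TMM, this change became -1.14 and passed 2-fold, while the median of all genes kept was -0.36. Per length, Vangl2 stood level with Vangl1 on day 3 morning (ratio 1.01) and day 4 evening (1.03), and Vangl1 was 1.60-fold above it on day 4 morning, 2.34-fold away from the embryo and 1.16-fold around it.

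**Figure D2:**
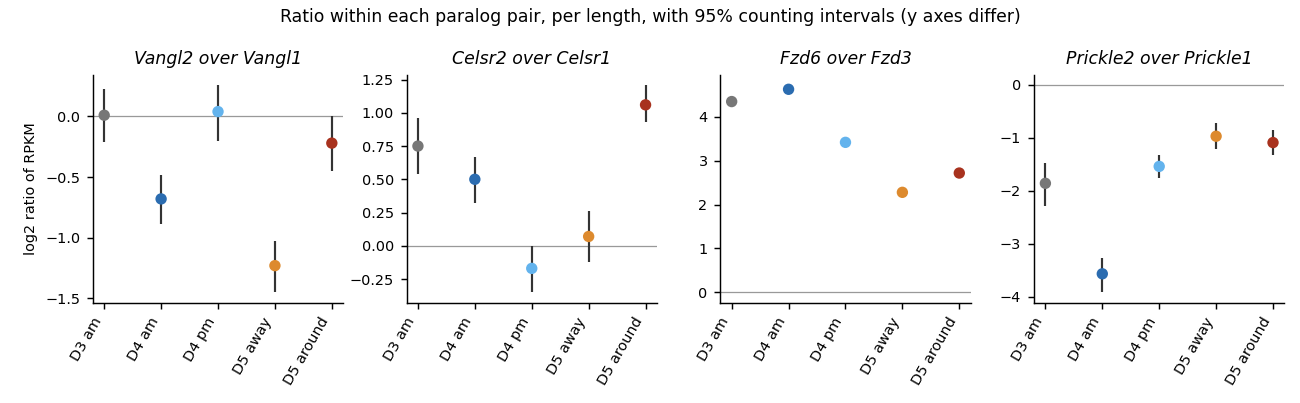
Each panel plots the log2 ratio of RPKM within 1 paralog pair (y axis, which differs between panels) in the 5 libraries (x axis, named as in the plot of levels), with bars for 95% counting intervals and a grey line at equal levels. The Fzd6 to Fzd3 log2 ratio was highest on day 4 morning at 4.63 and lowest away from the embryo at 2.28, while that of Prickle2 to Prickle1 ran the other way, from -3.57 to -0.97 in the same libraries.

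The Prickle adaptors, LIM-domain proteins that bind Vangl on the cytoplasmic side, changed at different times. Prickle1 (chr15:93499114-93595891) was counted 140, 556, 396, 262 and 288 times, or 7.92, 31.1, 25.1, 14.0 and 17.0 CPM. All neighbours in the order of its levels differed beyond counting error, from day 3 morning at the bottom through both day 5 libraries and day 4 evening to day 4 morning at the top. From day 3 to day 4 morning it was 1.96 higher on the log2 scale (1.70 to 2.25), or 3.89-fold, a larger change than that of 94.5% of the genes kept. It was lower again on day 5, with log2 changes against day 4 morning of -1.15 (-1.37 to -0.94) at the site away from the embryo and -0.87 (-1.09 to -0.67) around the embryo. Scaled by total counts the first of these was -0.86, within 2-fold.

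Prickle2 (chr6:92370908-92706155) was counted 81, 98, 289, 285 and 287 times, or 4.58, 5.49, 18.3, 15.2 and 16.9 CPM. The day 3 and day 4 morning libraries formed a low group and the other 3 a high group, with no neighbours inside either group differing beyond counting error. The ends of the high group did differ, with a log2 change of -0.27 from day 4 evening to day 5 away from the embryo (-0.51 to -0.03). From day 4 morning, Prickle2 was 1.72 higher on the log2 scale on day 4 evening (1.41 to 2.09), 1.45 higher away from the embryo (1.13 to 1.81) and 1.60 higher around it (1.29 to 1.97). The step from day 4 morning to evening was 3.30-fold and exceeded that of 94.8% of the genes kept. Per length Prickle1 remained above Prickle2 in every library, by 3.63-fold on day 3 morning, 11.9-fold on day 4 morning, 2.90-fold on day 4 evening, 1.95-fold away from the embryo and 2.13-fold around it.

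**Figure D3:**
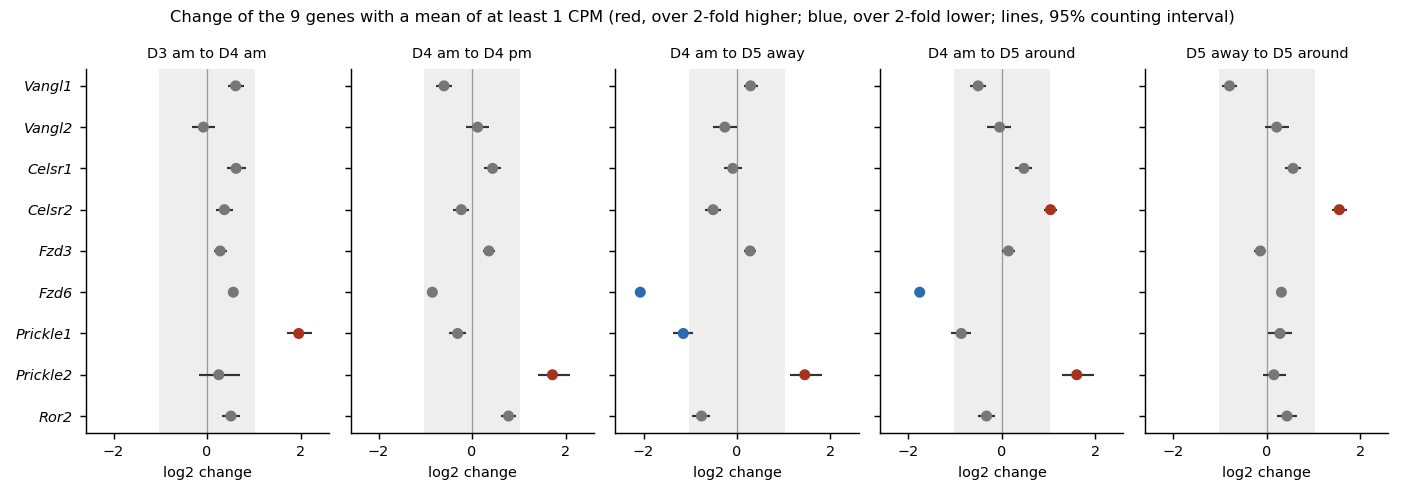
Each panel plots 1 comparison, with log2 change of TMM-scaled CPM on the x axis and the 9 genes kept on the y axis. Lines are 95% counting intervals, the grey band marks changes within 2-fold, and red and blue mark genes more than 2-fold higher and lower. Prickle2 lies beyond 2-fold in the 3 panels that start at day 4 morning, Fzd6 in both panels that run from day 4 morning to day 5, and Celsr2 in both panels that end around the embryo.

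Read by comparison, few of the 9 genes kept passed 2-fold, and the shares of all genes that did so are given beside each count. From day 3 to day 4 morning 1 gene was more than 2-fold higher (Prickle1) and 0 lower, where 7.96% and 11.0% of all genes kept were. From day 4 morning to evening 1 was higher (Prickle2) and 0 lower, against 7.15% and 6.96%. From day 4 morning to day 5 away from the embryo 1 was higher (Prickle2) and 2 were lower (Fzd6 and Prickle1), against 14.6% and 14.5%. From day 4 morning to day 5 around the embryo 2 were higher (Prickle2 and Celsr2) and 1 was lower (Fzd6), against 20.9% and 22.4%.

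Between the day 5 libraries, 1 gene was more than 2-fold higher around the embryo than away from it (Celsr2) and 0 were lower, against 13.7% and 14.5% of all genes kept. From day 4 evening to day 5 away from the embryo 0 were higher and 2 lower (Ror2, and Fzd6 at -1.22, or -0.98 when scaled by total counts), against 12.7% and 12.9%, and from day 4 evening to day 5 around it 1 was higher (Celsr2) and 1 lower (Ror2), against 19.3% and 20.4%. Comparisons that share a library are not independent of each other. With 9 genes, each of these counts lay within 2 genes of the number that the share over all genes gives. In all, 5 genes passed 2-fold in at least 1 of these 7 comparisons and 4 (Vangl1, Vangl2, Celsr1 and Fzd3) in none. The share of all genes kept that passed in at least 1 is not given. The median range of all genes kept over the 5 libraries was 1.36 on the log2 scale, so passing 2-fold somewhere does not set the 5 apart.

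The genes whose course over the 5 libraries was most like that of Fzd6, among the 8841 genes averaging 10 CPM or more, were Msi2, Nt5c3 and Cdk14. Their root mean square difference from it was 0.083, 0.091 and 0.098 on the log2 scale after each gene was centred on its own mean. Msi2, an RNA-binding protein, was counted 1393, 1999, 1093, 584 and 577 times, and so shared the day 4 morning peak and the low day 5 values. For Prickle2 the most alike were Sdcbp, Zadh2 and Swt1, at 0.16, 0.172 and 0.195. Sdcbp, which encodes the scaffold syntenin, was counted 14680, 19344, 56123, 40958 and 51634 times, with the same step between day 4 morning and evening.

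The rest of the pathway was read from 5 lists of 46 genes, of which 36 were kept. In the order of the comparisons above, 4, 6, 11, 13, 6, 5 and 9 of the 36 were more than 2-fold higher and 9, 3, 3, 7, 6, 3 and 5 more than 2-fold lower. The shares of all genes kept that were higher were 7.96%, 7.15%, 14.6%, 20.9%, 13.7%, 12.7% and 19.3%. Those lower were 11.0%, 6.96%, 14.5%, 22.4%, 14.5%, 12.9% and 20.4%. The median log2 change of the 36 was -0.02, 0.06, 0.28, 0.52, 0.10, 0.36 and 0.39, while that of all genes kept lay between -0.02 and 0.04.

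The Wnt ligands of polarity signalling (6 of 7 kept) had the largest list median from day 4 morning to day 5. It was 1.04 away from the embryo, where 3 were more than 2-fold higher and 0 lower. Around it the median was 2.0, with 4 higher and 2 lower. Of all genes kept, 14.6% were higher and 14.5% lower away, and 20.9% and 22.4% around. These shares also apply to the same comparisons in the lists that follow. Wnt7b, a ligand of epithelial origin, was counted 668, 115, 409, 21271 and 21932 times, so that from day 4 morning it was 173-fold higher away from the embryo and 197-fold higher around it. Wnt11, which acts through non-canonical routes, was counted 1615, 4272, 6166, 10016 and 16849 times, 2.61-fold higher on day 4 than on day 3 morning. Wnt4 was counted 433, 61, 25, 48 and 228 times and was 5.07-fold higher around the embryo than away from it, whereas Wnt5b, at 49, 42, 27, 86 and 17 counts, was 4.21-fold lower there. Wnt5a, the ligand of Ror2 and chosen here after its values were seen, was counted 3238, 5061, 3845, 6375 and 1512 times, with a log2 change of -1.93 from away to around the embryo (-2.01 to -1.85). In the same comparison Ror2 was 0.43 higher on the log2 scale under TMM scaling, and by less under library totals. Between the same libraries the stromal markers went both ways and summed to 775 and 600 CPM. Lum, Dcn and Col3a1 were among those lower (Col3a1 at 141 and 42.9 CPM). Hand2 (20.7 and 134 CPM), Col1a1 (24.4 and 46.9 CPM), Pdgfra and Pdgfrb were higher. Immune markers summed to 240 and 90.2 CPM, although Cd68 was higher around the embryo (11.7 and 39.4 CPM). Their part in the Wnt5a difference was not tested.

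The other Frizzled receptors (6 of 8 kept) had medians of 0.42 away from and 1.55 around the embryo against day 4 morning, with 3 and 4 more than 2-fold higher and 0 and 1 lower. Fzd7 was counted 22, 39, 24, 92 and 380 times, and was 9.78-fold higher around the embryo than on day 4 morning. Fzd10, at 361, 145, 116, 102 and 12 counts, went the other way with a log2 change of -3.33 (-4.51 to -2.67). Fzd5 had 204, 434, 988, 404 and 854 counts, with its peak on day 4 evening as in Ror2. Fzd2 was counted 700, 584, 231, 445 and 428 times and passed 2-fold downward from day 4 morning to evening, at a log2 change of -1.15.

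Among the other core genes and paralogs (16 of 17 kept) 4 were more than 2-fold higher in each day 5 library than on day 4 morning, with 0 lower away from the embryo and 1 lower around it. Celsr3, the third of the Celsr cadherins, was counted 2, 9, 81, 45 and 54 times and was 8.49-fold higher on day 4 evening than morning. From 2 counts on day 3 morning its log2 change to day 4 morning was 1.44, with a counting interval of -0.12 to 5.40. Ankrd6, a vertebrate relative of the fly polarity protein Diego, had a log2 change of -2.21 from day 4 morning to day 5 around the embryo. Dact1, which binds Dishevelled, was 1.86 higher on the log2 scale from day 4 evening to day 5 away from it. The 3 Dishevelled genes were counted in each library, at 161 to 1047 reads.

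The Fat and Dachsous system, a second set of polarity cadherins, had 5 of 7 genes kept. Fjx1, which encodes a Golgi kinase of the Four-jointed family that modifies these cadherins, was counted 269, 33, 274, 1176 and 843 times, 32-fold higher away from the embryo and 25.3-fold higher around it than on day 4 morning. Fat4 was counted 53, 40, 5, 8 and 7 times, a log2 change of -2.45 from day 4 morning to evening. Fat3 was counted 95, 3, 34, 0 and 0 times. With the 0 away from the embryo set to the floor of 3 counts, it was 13.5-fold lower there than on day 4 evening. The counting interval of this log2 change, with the count at 0, lay below -3.38. The ciliary polarity effectors had 3 of 7 genes kept, with 0 more than 2-fold higher on day 5 against day 4 morning and 1 lower in each library.

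**Figure D4:**
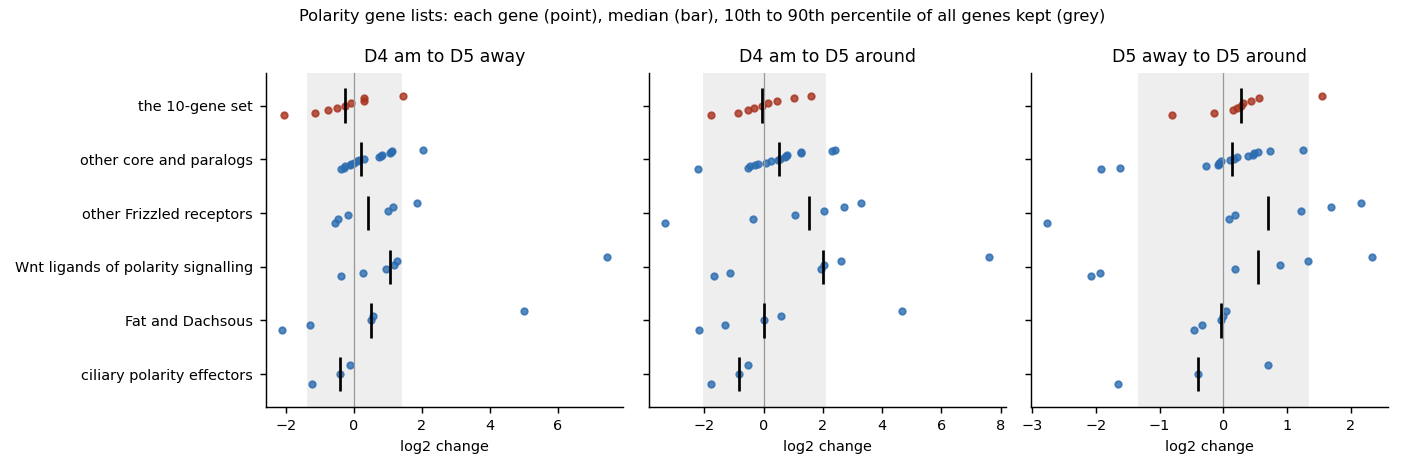
Each panel plots 1 comparison, with log2 change on the x axis and the gene lists on the y axis. Points are single genes that averaged 1 CPM or more (red, the set described here; blue, the other polarity lists), black bars are list medians and the grey band spans the 10th to 90th percentile of all genes kept. Wnt7b lies farthest to the right in both panels that start at day 4 morning, at 7.43 and 7.62, while the set of receptors and effectors stays within -2.07 to 1.60 in the 3 panels.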

How the data were processed

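RNA from 5 luminal layer samples isolated by laser microdissection was amplified with the SMART-seq v.4 kit, and per the labels and methods the authors aligned reads with HISAT2 to GRCm38 (mm10) and counted them with featureCounts (Subread 2.0.0). The deposited values used here are these raw read counts per gene, not normalized, with the length of each counted feature (in bases, unit other). The annotation, strand setting, treatment of reads with several alignments and pooling for these wild-type libraries are not given in the sources used here, so paralogs and antisense overlaps are subject to the authors' counting. Genes averaging 1 CPM or more over the 5 libraries were kept (12918 of 23420), TMM factors were computed on them with edgeR 4.0.16 (R 4.3.3), and log2 changes used a prior count of 2. A change beyond 2-fold was the criterion, with no test, since each condition had 1 library. The 95% counting interval of a count ratio is exact (Clopper-Pearson, scipy 1.17.1), that of a level exact Poisson. Both cover counting error only and ignore that amplified reads are not independent molecules. RPKM divides TMM-scaled CPM by feature length. Fold changes of called genes are on the log2 CPM scale with the prior count, which understates changes of low genes. The calculation was tested on simulated data.

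The members and gene lists were chosen with earlier results of these data known, and the comparisons of day 4 evening with day 5 were added after the values were seen. Other genes of the pathway were named as the 3 with the largest change in each direction of each comparison, beyond 2-fold, and 1 further list of the pathway with its genes is not reported here. The most alike genes were named for the 2 members with the widest range among those with a mean of at least 10 CPM, and lists were described by counts and medians. Gene positions and coding sequences came from GENCODE vM21 (GRCm38) and promoters from RefSeq (GRCm38.p6). The reference tables hold promoters of 6 of the 10 genes. DESeq2 1.42.0 size factors, library totals, other filters, a prior count of 0.5 and the edgeR exact test at a fixed dispersion of 0.1 were alternatives. The feature lengths of the table were used as deposited.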

Additional observations from a re-analysis of the deposited data

Results flagged for a closer look

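Vangl1 and Celsr2 moved in opposite directions between day 4 morning and the pair of day 5 libraries. Vangl1 was 0.29 higher on the log2 scale away from the embryo (95% counting interval 0.15 to 0.44) and had a change of -0.51 around it (-0.69 to -0.34), so that the difference of around minus away was -0.80. Celsr2 went the other way, at -0.51 away from the embryo (-0.69 to -0.34) and 1.04 around it (0.90 to 1.18), a difference of 1.55. Each day 5 condition had 1 library, both changes share the day 4 morning library, and the difference between the conditions was not tested. Under library totals the differences were -1.14 for Vangl1 and 1.21 for Celsr2.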

How the results depend on the processing

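DESeq2 size factors, a prior count of 0.5 and a filter at a mean of 5 CPM kept all 14 counts of genes beyond 2-fold, and each of the 63 log2 changes moved by less than the counting error under them. No change beyond 2-fold turned direction under any alternative run, but 11 smaller changes of up to 0.31 did so under library totals and 8 of up to 0.28 under totals without Rn45s and Lars2, 4 and 3 of them between the day 5 libraries (Vangl2, Prickle1 and Prickle2 under both, and Fzd6 at -0.03 under totals). Scaling by library totals, with and without the most abundant transcripts Rn45s and Lars2, moved 6 of the 14 counts each. Under both of these, the count was 1 for genes lower from day 4 morning to day 5 away from the embryo (Prickle1 at -0.86 and -1.0), 1 for genes higher from day 4 morning to day 5 around it (Celsr2 at 0.99 and 0.87), 1 for genes lower around than away (Vangl1 at -1.14 and -1.12), 1 for genes higher from day 4 evening to day 5 away (Vangl1 at 1.13 and 1.03) and 2 for genes lower from day 4 evening to day 5 around (Fzd6 at -1.01 and -1.08). Under totals alone, 1 gene was lower from day 4 evening to day 5 away (Fzd6 at -0.98), and without Rn45s and Lars2, 2 were lower from day 4 morning to day 5 around (Prickle1 at -1.03, against -0.87 under TMM). The shares of all genes beyond 2-fold under these scalings are not given. From away to around the embryo, the median log2 change of all genes kept was -0.36 under totals and -0.33 without Rn45s and Lars2. From day 4 evening to day 5 away the medians were 0.23 and 0.14. With no filter, Ror1, at 6 counts or fewer, was added to 4 counts, which became 2 higher from day 4 morning to evening, 3 higher from day 4 morning to day 5 around, 2 higher between the day 5 libraries and 3 lower from day 4 evening to day 5 away. Counting intervals wholly beyond 2-fold left 1 gene lower from day 4 morning to day 5 away, 1 higher from day 4 morning to day 5 around and 0 lower from day 4 evening to day 5 around. The edgeR exact test at a dispersion of 0.1, at an adjusted p under 0.05 and beyond 2-fold, called 1 gene lower, Fzd6, in each comparison of day 4 morning with day 5, and 0 genes wherever else a gene passed 2-fold. It called 5.89% and 12.0% of all genes kept lower in the comparisons where it called Fzd6. Where it called 0, the shares of all genes kept ran from 0.759% (higher from day 3 to day 4 morning) to 12.4% (higher from day 4 morning to day 5 around the embryo). Since each side is 1 library and the dispersion is assumed, the exact test compares these libraries and not the conditions. The cause was not tested. The 20 paralog ratios without Ror1 all held under a prior count of 0.5. Those of Ror2 to Ror1 were left out of this check. With Ror1 at 0 counts, their log2 ratio went from 7.43 to 9.43 on day 3 morning and from 7.27 to 9.26 away from the embryo.

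No paired analysis was possible because each condition had 1 library, and leaving out a library would have emptied a condition. Variation between mice, sections and amplifications cannot be told apart from the differences between days and sites. Between the day 5 libraries, the site and the pole of the uterus cannot be told apart either. Depth limits Ror1 to an upper bound in the libraries where it was not counted. Low counts widen the intervals of Ror1 in the others, of Prickle2 before day 4 evening and of Celsr3, Fat3 and Fat4.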
